A study of Homo sapiens with 6 samples.

Results

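The miR-181 family was examined in miRNA sequencing of LX-2, a human hepatic stellate line made immortal, activated with TGF-β1 and cultured alone or beside HUC-MSCs, mesenchymal stem cells of the human umbilical cord. Its 9 mature members were taken by name, with earlier results of these data known. The 5p arms were miR-181a-5p, miR-181b-5p, miR-181c-5p and miR-181d-5p. The 3p arms were miR-181a-3p, miR-181a-2-3p, miR-181b-3p, miR-181b-2-3p and miR-181c-3p. The tables listed 6 of the 9 among 463 distinct sequences, namely all 4 5p arms and 2 3p arms. miR-181b-3p, miR-181b-2-3p and miR-181c-3p were not listed under their names in any library. LX-2 cells of both groups had received TGF-β1, at 10 ng/mL in the methods. Its duration is 24 h in the sample labels and 48 h in the methods. In the co-culture group (3 libraries) HUC-MSCs grew in a Transwell insert above the LX-2 cells, and in the single culture group (3 libraries) the insert held no cells. Only LX-2 cells were collected, after 48 h. LX-2 is a single line, and nothing in the labels says whether the libraries of a group came from separate cultures, so every test below measures the spread between these libraries.

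A miRNA hairpin is cut into a duplex of its 5p and 3p arms. Argonaute usually keeps one arm, the guide, and the other, the passenger arm, is mostly degraded. Bases 2 to 8 of the retained arm, the seed, pair with target mRNAs. In the miR-181 family the 5p arm is generally regarded as the guide, known for tuning T cell receptor signalling in thymocytes and for roles in haematopoietic and vascular cells. Hepatic stellate cells become collagen-producing myofibroblasts under TGF-β1, and miR-181 members have been studied as modulators of that pathway.

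The sequences are shown because the 5p arms share a seed while the 3p arms do not, and because the results below turn on miR-181a-5p and its 2 partner arms. They are RefSeq mature sequences (GRCh38.p14), with the seed in capitals, and all 6 listed members had exactly these letters in the tables.
miR-181a-5p: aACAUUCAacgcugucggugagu
miR-181b-5p: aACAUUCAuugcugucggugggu
miR-181c-5p: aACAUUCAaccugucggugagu
miR-181d-5p: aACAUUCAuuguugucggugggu
miR-181a-3p: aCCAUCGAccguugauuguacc
miR-181a-2-3p: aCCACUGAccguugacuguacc
miR-181c-3p: aACCAUCGaccguugaguggac
miR-181b-3p: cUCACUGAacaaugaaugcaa
miR-181b-2-3p: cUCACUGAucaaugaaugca

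All 4 5p arms carried the seed ACAUUCA, which only miR-4262 shares among 2370 RefSeq mature names. Positions are counted from 1 at the 5′ end. From miR-181a-5p to miR-181b-5p the substitutions were A9U, C10U and A21G, leaving 20 of 23 bases identical. miR-181d-5p differed from miR-181b-5p by C12U alone, and miR-181c-5p lacked base 11 of miR-181a-5p. The 2 listed 3p arms were identical at 19 of 22 bases, and C5U and U6C, the first 2 of the 3 changes from miR-181a-2-3p to miR-181a-3p, fall inside the seed. The remaining change was C16U. With so few differences, reads holding an error can pass from one member to another, and the mismatches that the authors' mapping allowed are not given in the sources used here.

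miR-181a-5p is made from 2 genes, and its tags cannot be divided between them, whereas each 3p arm comes from 1 gene. MIR181A1 lies at chr1:198859044-198859153 on the minus strand, in an intron of the noncoding gene MIR181A1HG, 61 bases from MIR181B1. MIR181A2 lies at chr9:124692442-124692551 on the plus strand, in introns of 2 genes, MIR181A2HG on its own strand and NR6A1 on the other, with 1158 bases between it and MIR181B2. MIR181C and MIR181D lie 66 bases apart in an intron of NANOS3 on chromosome 19 (13874699 to 13874808 and 13874875 to 13875011, plus strand). All coordinates are GRCh38 (GENCODE release 29). The 2 miR-181a hairpins, both 110 nt, are shown with their arms in capitals, 5p first.
MIR181A1: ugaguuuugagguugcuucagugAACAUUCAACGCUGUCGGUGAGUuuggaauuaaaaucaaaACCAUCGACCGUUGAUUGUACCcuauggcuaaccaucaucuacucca
MIR181A2: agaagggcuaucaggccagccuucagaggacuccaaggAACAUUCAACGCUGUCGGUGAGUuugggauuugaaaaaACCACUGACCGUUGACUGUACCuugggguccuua

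The libraries held 43956 to 209043 tags in the single culture group and 325037 to 604418 in the co-culture group. The smallest count listed was 2, so a blank stands for 0 or 1 tag and is entered as 0 here. Levels are given as CPM, tag counts brought to a common library total, after scaling by TMM, the trimmed mean of M values, which places most sequences at no change. On this scale 2 tags were worth 6.60, 31.0 and 29.7 CPM in single culture libraries 1, 2 and 3, and 5.34 to 7.77 CPM in the co-culture libraries. The groups also differed as wholes. Sequences of miR-21-5p took 37.1% to 56.4% of the tags in single culture and 75.0% to 81.2% in co-culture. Tags of 17 to 20 nt took 7.56% to 25.7% and 2.12% to 3.79%. Single culture library 1 correlated more closely with the co-culture libraries (r 0.969 to 0.980, log2 CPM) than with the other libraries of its own group (r 0.929 and 0.939). Of marker miRNAs, 10 of 11 mesenchymal names were listed, whereas 0 of 6 epithelial and 0 of 7 blood cell names were. Of 4 hepatocyte names, neither arm of miR-122 was listed, while miR-192-5p and miR-194-5p summed to 168 to 392 CPM of plain library size in single culture and 187 to 255 in co-culture. Of 3 neuronal names, miR-124-3p was not listed, and the other two, miR-9-5p and miR-128-3p, summed to 978 to 1172 CPM in single culture and 424 to 599.9 in co-culture on the same scale. Both arms of the endothelial miR-126 were listed, at a summed 182 to 254 CPM in single culture and 116 to 171 in co-culture on that scale. The part of these differences in the results below was not tested. In RNA from a whole culture, fewer cells of a type and less RNA per cell cannot be told apart.

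The family was a minor component: its 6 listed members summed to 237 tags over the 6 libraries, 74 from 5p arms and 163 from 3p arms. The most abundant member in every library was a partner arm, miR-181a-2-3p. It ranked 161st by mean CPM of 463 sequences in single culture and 118th in co-culture. miR-181a-5p, the guide by convention, ranked 203rd and 198th. miR-181a-2-3p had more tags than miR-181a-3p and than miR-181a-5p in 6 of 6 libraries. Further down the order the members were closer together. miR-181a-3p was above miR-181a-5p in 3 libraries, equal in 1 and below in 2, and miR-181a-5p was above miR-181d-5p in 3 and equal in 3.

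**Figure D1:**
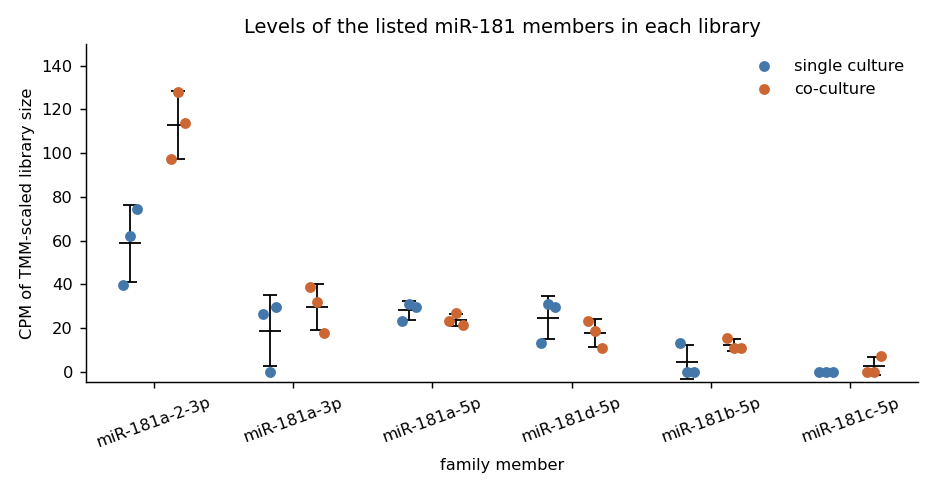
Level of each listed miR-181 member in each library, in CPM of the TMM-scaled library size. Points are libraries, long bars are means and error bars are SDs (n = 3); miR-181a-2-3p is the member whose groups lie farthest apart, at 39.6 to 74.3 CPM in single culture and 97.1 to 128 CPM in co-culture.

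miR-181a-2-3p, the 3p arm of MIR181A2, was counted at 12, 4 and 5 tags in single culture and at 25, 48 and 32 tags in co-culture. As levels, these were 39.6, 62.1 and 74.3 CPM against 97.1, 128 and 114 CPM. Every co-culture library was above every single culture library, as was the case for 20.3% of the 182 sequences tested (37 higher in co-culture without overlap). The means were 58.7 ± 17.6 CPM and 113 ± 15.5 CPM (SD, n = 3 each), 1.93-fold apart.

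The difference in miR-181a-2-3p did not pass the test across all sequences. In edgeR's quasi-likelihood test the log2 fold change was 1.16 (SE 0.29, 95% interval 0.46 to 1.85), with a Benjamini-Hochberg adjusted p of 0.0607 over 182 sequences. It stood 16th by p, and 2.20% of the sequences tested were called higher. miR-181a-2-3p was the only member to reach the minimum of 10 tags in 3 libraries, and it did so through all 3 co-culture libraries and single culture library 1. With no minimum the log2 fold change was 1.19 (SE 0.38, adjusted p = 0.0257 in edgeR over 463 sequences), where 2.59% of the sequences were called higher. That fit also called sequences whose groups overlapped, such as let-7c-5p (adjusted p = 2.1e-06 in edgeR, against 0.212 with the minimum). Without single culture library 1 the log2 fold change of miR-181a-2-3p was 0.72, with an adjusted p of 0.267 in edgeR. The study had picked this miRNA from the same libraries for a follow-up by qRT-PCR, so its direction here is not independent of that choice. That qRT-PCR was not analysed here.

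The size of the difference in miR-181a-2-3p depended on the scaling. With library size alone as the divisor, its levels were 57.4, 91.0 and 105 CPM in single culture and 76.9, 79.4 and 75.8 CPM in co-culture. The co-culture values then fell inside the range of the single culture values (84.5 ± 24.5 and 77.4 ± 1.84 CPM, SD, n = 3), and edgeR gave a log2 fold change of 0.06 with an adjusted p of 0.846. The median log2 fold change of all 182 sequences moved from -0.04 to -1.11 under this divisor. miR-181a-2-3p lay above that median on both scales, which follows from its place on the first, since a new divisor moves all sequences nearly alike. In the authors' normalized values it read 20, 16 and 18 without HUC-MSCs against 28, 31 and 29 with them, again without overlap. On those values limma gave a log2 fold change of 0.68 with 1 added (adjusted p = 0.351) and 0.49 with 10 added (adjusted p = 0.506). With the authors' scaling, edgeR gave 0.60 (adjusted p = 0.437).

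**Figure D2:**
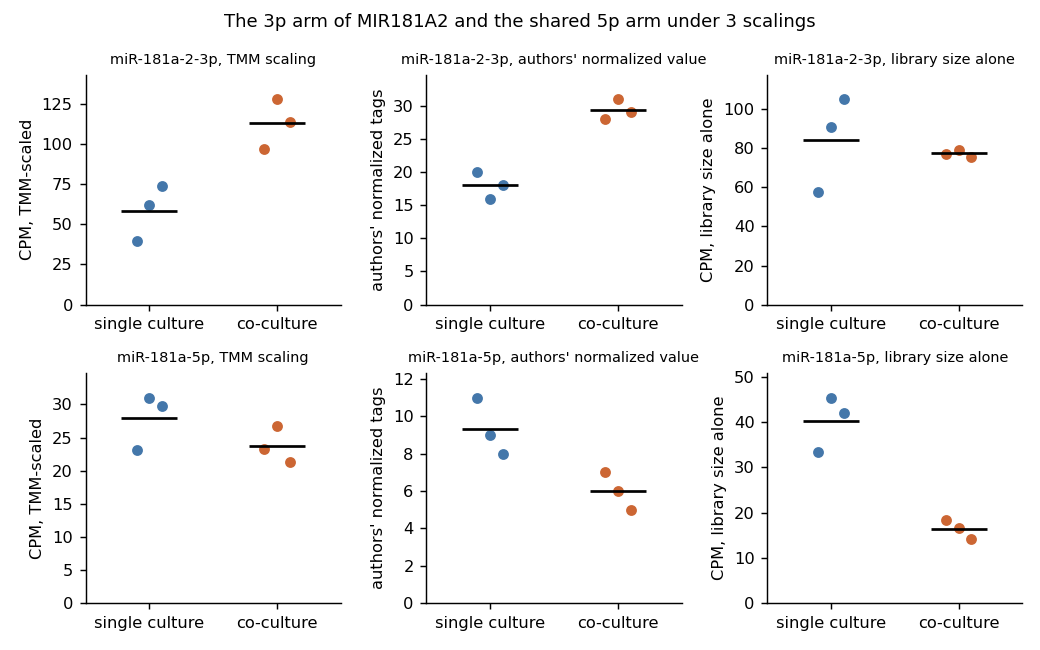
Levels of miR-181a-2-3p (upper row) and miR-181a-5p (lower row) under 3 scalings: TMM-scaled CPM, the authors' normalized tags and CPM of plain library size. Points are libraries and bars are means. The groups of miR-181a-2-3p lie apart in the first 2 columns and overlap in the last. Those of miR-181a-5p overlap with TMM and are lower in co-culture in the other 2. With library size alone, edgeR called 139 of 182 sequences lower.

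**Figure D3:**
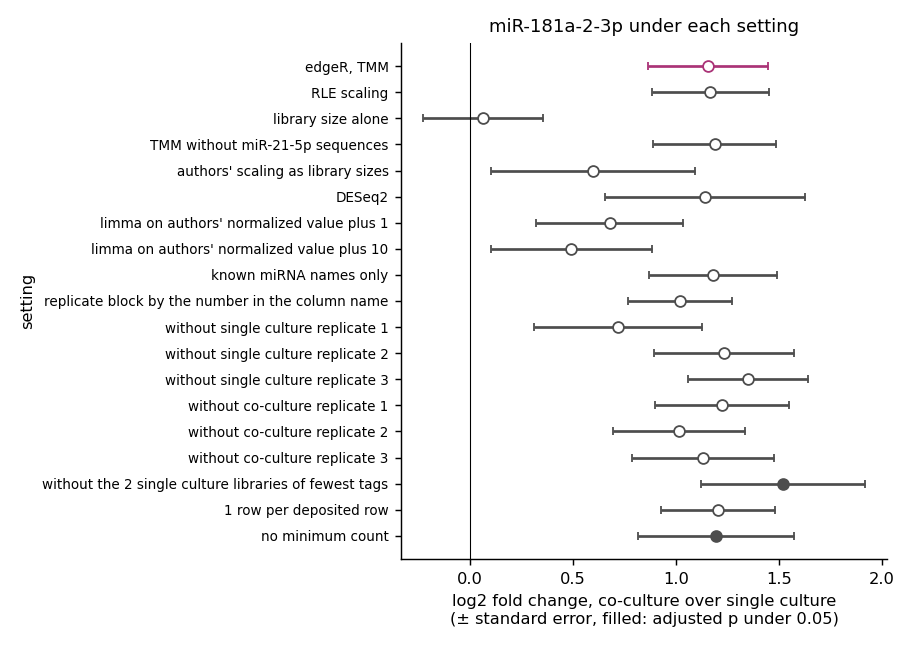
Log2 fold change of miR-181a-2-3p, co-culture over single culture, under the edgeR fit with TMM scaling (top) and 18 alternatives, with standard errors. Filled points have an adjusted p under 0.05, which holds with no minimum count and without the 2 single culture libraries of fewest tags, where 1 single culture library is left and its spread is assumed to be that of the co-culture group; the values run from 0.06 with library size alone, within its standard error of 0, to 1.52.

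miR-181a-5p, the shared 5p arm of MIR181A1 and MIR181A2, had 7, 2 and 2 tags in the single culture libraries, against 6, 10 and 6 in the co-culture libraries. Its TMM-scaled levels were 28.0 ± 4.25 and 23.8 ± 2.71 CPM (SD, n = 3), and the groups overlapped. edgeR with no minimum gave a log2 fold change of -0.07 (adjusted p = 0.971). The 95% interval computed back from its unadjusted p-value ran from -1.47 to 1.33. That is wide enough to hold a change of the size seen in miR-181a-2-3p in either direction, but such an interval is unreliable for so small a fold change. With library size alone the levels were 33.5, 45.5 and 42.1 CPM against 18.5, 16.5 and 14.2 CPM, and every co-culture library was lower. On that scale edgeR called 139 of 182 sequences lower, with a median log2 fold change of -1.11. miR-181a-5p itself was at -1.19 there with no minimum (adjusted p = 0.230 in edgeR). In single culture libraries 2 and 3 this arm was at the smallest count listed.

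miR-181a-3p, the 3p arm of MIR181A1, had 8, 0 and 2 tags in single culture, against 10, 12 and 5 in co-culture. The levels overlapped at 18.7 ± 16.3 and 29.6 ± 10.8 CPM (SD, n = 3). Its log2 fold change with no minimum was 0.45 (95% interval -0.90 to 1.80, adjusted p = 0.746 in edgeR). At its pooled co-culture level 1.90 tags would be expected in single culture library 2, where it was blank, so the blank was not informative at that depth.

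The remaining 5p arms were at the limit of detection. miR-181d-5p, made from MIR181D, was listed in all 6 libraries at 4, 2 and 2 tags without HUC-MSCs and 6, 7 and 3 with them (24.7 ± 9.94 and 17.6 ± 6.40 CPM, SD, n = 3). miR-181b-5p, made from MIR181B1 and MIR181B2, was listed at 4 tags in single culture library 1 only and at 4, 4 and 3 tags in co-culture. At its pooled co-culture level, 0.776 and 0.811 tags would be expected in single culture libraries 2 and 3, below what the tables list. The log2 fold changes with no minimum were -0.16 for miR-181d-5p (95% interval -1.92 to 1.61, adjusted p = 0.930 in edgeR) and 0.58 for miR-181b-5p (-1.86 to 3.03, adjusted p = 0.844). miR-181c-5p appeared once, at 2 tags in co-culture library 3. A difference between the groups was not detectable for these 3 arms at this depth.

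The shares of the 5p arms in the 5p pool had overlapping counting intervals in the 2 groups. Of 23 5p tags summed over single culture, miR-181a-5p held 47.8% (95% Wilson interval 29.2% to 67.0%), and of 51 in co-culture 43.1% (30.5% to 56.7%). miR-181d-5p held 34.8% (18.8% to 55.1%) and 31.4% (20.3% to 45.0%), and miR-181b-5p 17.4% (6.98% to 37.1%) and 21.6% (12.5% to 34.6%). These intervals cover counting error only and pool 3 libraries. In levels, the 5p arms of the family summed to 49.5, 62.1 and 59.4 CPM in single culture and 62.2, 56.1 and 49.8 CPM in co-culture, with overlap. The 2 3p arms summed to 66.0, 62.1 and 104 CPM against 136, 160 and 132 CPM, without overlap. Of the 182 sequences tested, 20.3% were higher in co-culture without overlap. With library size alone the 5p sum was lower in every co-culture library and the 3p sums overlapped (111 ± 31.2 and 98.2 ± 10.0 CPM, SD, n = 3). On that scale 139 of 182 sequences were called lower by edgeR.

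The ratio of 3p to 5p tags within a library does not depend on the scaling between libraries. For miR-181a, the 3p arms made up 20 of 27 tags in single culture library 1 (74.1%, 95% Wilson interval 55.3% to 86.8%), 4 of 6 in library 2 (66.7%, 30.0% to 90.3%) and 7 of 9 in library 3 (77.8%, 45.3% to 93.7%). In co-culture they made up 35 of 41 (85.4%, 71.6% to 93.1%), 60 of 70 (85.7%, 75.7% to 92.1%) and 37 of 43 (86.0%, 72.7% to 93.4%). The 3p arms were thus the larger part in all 6 libraries. All 3 co-culture shares were above all 3 single culture shares, but the counting intervals of single libraries overlapped. Summed over a group the shares were 73.8% of 42 tags (58.9% to 84.7%) and 85.7% of 154 tags (79.3% to 90.4%).

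**Figure D4:**
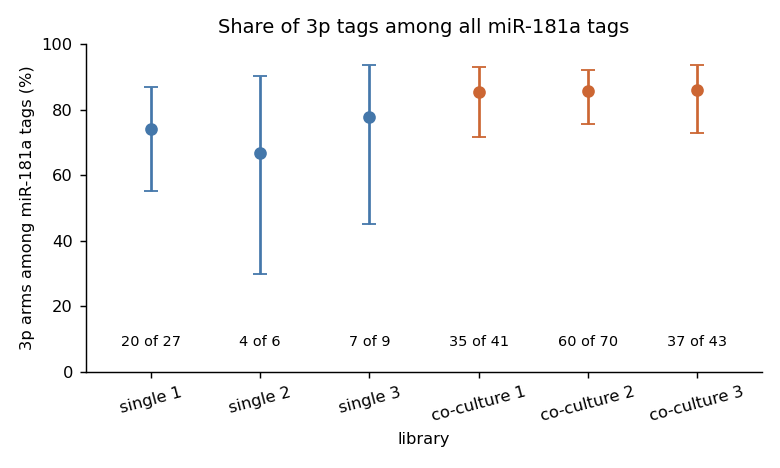
Share of 3p tags (miR-181a-3p and miR-181a-2-3p) among all miR-181a tags in each library, in percent, with 95% Wilson intervals that cover counting error only. The co-culture points sit at 85.4% to 86.0% above the single culture points at 66.7% to 77.8%, and the intervals overlap; the number of tags behind each point is printed under it.

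As log2((3p + 0.5)/(5p + 0.5)), the miR-181a ratio was 1.45, 0.85 and 1.58 without HUC-MSCs and 2.45, 2.53 and 2.53 with them. The group means were 1.29 ± 0.39 and 2.50 ± 0.05 (SD, n = 3), a difference of 1.21. A 2-sided exact permutation test gave p = 0.1, the smallest that 3 against 3 libraries allow, so this design cannot pass 0.05, and the adjusted p over the 6 ratios compared was 0.3. The difference was larger than the spread within either group. In single culture libraries 2 and 3, however, miR-181a-5p was at 2 tags, the smallest count listed. Were its TMM-scaled level the same as in co-culture, 1.55 and 1.62 tags would be expected there. In single culture library 1, 7.30 would be expected and 7 were counted. The effect of this limit on the ratio was not tested. The difference had the same direction with each 3p arm taken alone, but both of those ratios are over the same miR-181a-5p tags. For miR-181a-2-3p over miR-181a-5p the ratios were 0.74, 0.85 and 1.14 against 1.97, 2.21 and 2.32, again without overlap (difference 1.26, exact permutation p = 0.1, adjusted p = 0.3). For miR-181a-3p over miR-181a-5p the groups overlapped (-0.71 ± 1.40 and 0.23 ± 0.47, SD, n = 3, exact permutation p = 0.4, adjusted p = 0.6).

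Over the members listed by name, the log2 ratio of 3p to 5p tags was 0.40, 0 and 0.74 in single culture against 1.11, 1.49 and 1.37 in co-culture, without overlap (0.38 ± 0.37 and 1.32 ± 0.20, SD, n = 3, not tested). Length forms of family arms that the authors named themselves, given below, were not counted. This ratio shares its 3p tags and part of its 5p tags with the miR-181a ratio. The 3 ratios between members of the same arm overlapped between the groups. The share of the MIR181A2 arm among 3p tags was 67.7% of 31 tags in single culture (95% Wilson interval 50.1% to 81.4%) and 79.5% of 132 in co-culture (71.9% to 85.5%). The log2 ratio of the 2 3p arms was 1.62 ± 1.37 and 1.93 ± 0.64 (SD, n = 3, exact permutation p = 0.7). miR-181d-5p over miR-181a-5p gave -0.25 ± 0.43 and -0.46 ± 0.45 (exact permutation p = 0.7). miR-181b-5p over miR-181a-5p gave -1.79 ± 0.92 and -0.88 ± 0.35 (exact permutation p = 0.3), with miR-181b-5p blank in 2 single culture libraries. Adjusted over the 6 ratios, these were 0.7, 0.7 and 0.6.

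For background, 82 precursors had both arms listed, and 38 of them had more 3p than 5p tags over the 6 libraries, so a larger 3p arm was not particular to miR-181a. In 24 pairs the ratio of 3p to 5p tags was larger than the 126 to 33 of miR-181a-2-3p and miR-181a-5p. The ratio rose without overlap between the groups in 13.4% of the pairs (11 of 82, the MIR181A2 pair among them) and fell without overlap in 6. Across all pairs the median change was -0.21, and 10 pairs had a larger mean rise than the MIR181A2 pair. Of those 10, only 1 was listed on both arms in every library. The mir-378a pair, for example, had 2 5p and 1065 3p tags over the 6 libraries. With blanks entered as 0, the ratio of such a pair also depends on library depth, which was larger in co-culture. The part of depth in these counts was not tested. Among the 16 pairs listed on both arms in every library, the median change was -0.08. Of these 16, only the MIR181A2 and mir-374a pairs rose without overlap, and the mir-27a and mir-30a pairs fell without overlap. The mir-30e pair had a larger mean rise, 1.32, with overlapping groups.

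**Figure D5:**
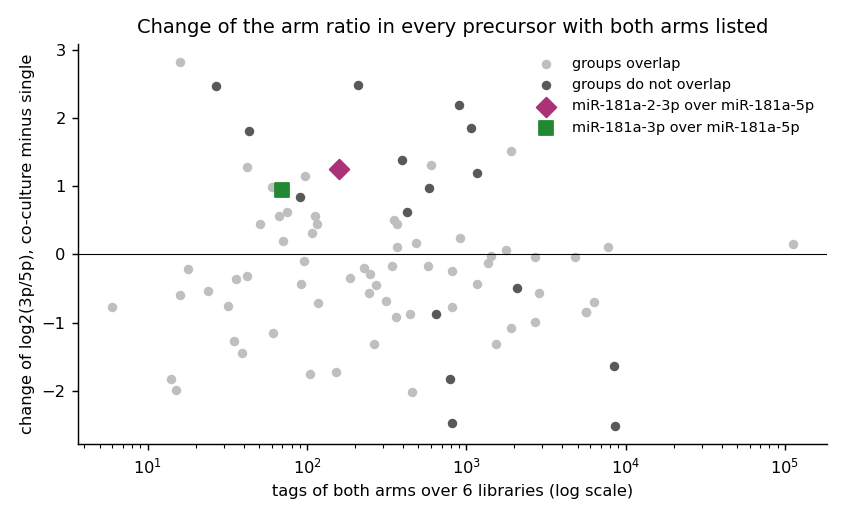
Change of log2(3p/5p) from single culture to co-culture for the 82 precursors with both arms listed, against the tags of both arms over the 6 libraries (log scale). Dark points are pairs whose groups do not overlap. The diamond, miR-181a-2-3p over miR-181a-5p, lies at 1.26 with 10 pairs above it, of which 1 was listed on both arms in every library. The square, miR-181a-3p over miR-181a-5p, lies at 0.95.

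Few arms of either side passed the test. Of 66 tested 3p arms of known miRNAs, edgeR called 1 higher and 2 lower (8 and 6 at an unadjusted p under 0.05), with a median log2 fold change of -0.03. Of 73 tested 5p arms it called 1 higher and 0 lower (10 and 2 at an unadjusted p under 0.05), with a median of 0.02. Over all 182 sequences there were 4 higher and 4 lower (22 and 24 at an unadjusted p under 0.05), with a median of -0.04. Of the arms that held the fewer tags of their pair, 18 could be tested, with 1 higher, 0 lower (1 and 0 at an unadjusted p under 0.05) and a median of 0.10.

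Among 22 miRNA names tied to TGF-β signalling, 17 were listed and 11 tested, and edgeR called 2 higher and 1 lower. Their median log2 fold change was 0.37. The same fit called 4 higher and 4 lower of all 182 sequences, with a median of -0.04. The 2 names called higher were both arms of the same hairpin, mir-21. Without co-culture library 2 or 3, edgeR made 0 calls over all sequences (14 higher and 20 lower, and 15 and 18, at an unadjusted p under 0.05). With library size alone it called 1 sequence higher and 139 lower, out of 182. Both miR-21-3p and its partner miR-21-5p, the arms of a miRNA known for promoting fibrosis, were higher by 1.50 (SE 0.19, adjusted p = 0.00739 in edgeR) and 1.39 (SE 0.21, adjusted p = 0.0176). miR-221-3p, a miRNA of proliferating and activated cells, was lower, with a log2 fold change of -0.62 (SE 0.11, adjusted p = 0.0283 in edgeR). miR-155-5p, an inflammation-linked miRNA, was at 0.57 with an adjusted p of 0.0599 in edgeR and was not called.

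By Pearson correlation of log2 CPM over the 6 libraries, the tested sequences outside the family whose pattern was most like that of miR-181a-2-3p were miR-31-5p (r = 0.903), miR-146a-5p (r = 0.887) and miR-125b-1-3p (r = 0.874). For miR-181a-5p they were 3 sequences named by the authors from a chromosome and a number, chr7_21280 (r = 0.891), chr17_7684 (r = 0.883) and chr19_8972 (r = 0.879). No sequence stood in both lists. These values are a description over 6 points that share libraries, scaling and depth.

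Among sequences that the authors named themselves, 2 were length forms of family arms, printed here to show how a shifted end changes the seed in capitals.
chr1_11169: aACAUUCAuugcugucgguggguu
chr19_8415: aCCAUCGAccguugaguggac

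chr1_11169 is miR-181b-5p with 1 more U at its 3′ end, as the MIR181B1 hairpin reads, and keeps the 5p seed. The hairpin of MIR181B2, the other gene of miR-181b-5p, was not available and was not searched, so the gene of this form is not settled. It was counted at 2 tags in single culture library 1, and at 4 and 2 tags in co-culture libraries 2 and 3. chr19_8415 is miR-181c-3p without its first base. The shift by 1 base changes the seed from ACCAUCG to CCAUCGA, which is the seed of miR-181a-3p. It was counted at 2 tags in single culture library 1 and at 2, 3 and 2 in co-culture. The 3p arm of MIR181C, unlisted under its own name, was therefore listed in a form 1 base shorter. chr7_21150 shared the seed CCACUGA with miR-181a-2-3p, lay in none of the family hairpins searched, and was counted at 3 tags in co-culture library 1 alone.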

How the data were processed

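Small RNA of the 3 single culture and 3 co-culture libraries was sequenced by the authors with Illumina chemistry. Bowtie 0.12.2, hg18 and mm8 stand in the submitters' processing notes, and which step each build served is not known here. The authors deposited raw tag counts, a normalized tag signal (the raw count times a nearly constant factor per library, whose target is not stated) and a comparison with fold changes and p-values, which was not used beyond its group mean columns. Numbered table columns matched no sample title and were assigned to groups because the authors' group means equalled the means of normalized value plus 1 over those columns in 520 of 520 rows (within 1e-05). Which column is which sample is not known, and library numbers are those in the column names. There were 0 value columns without a group.

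Rows with the same sequence held the same counts and were merged (520 rows, 482 names, 463 sequences of 17 to 25 nt). edgeR 4.0.16 in R 4.3.3 was run with TMM scaling and no covariates on sequences of at least 10 counts in 3 libraries, with Benjamini-Hochberg adjustment over 182 sequences, with calls at 0.05. Members under the minimum took their values from the same fit with no minimum. Standard errors and 95% intervals of edgeR fold changes were computed back from the fold change and its unadjusted p-value. They are unreliable where the log2 fold change is very small, as for miR-532-5p (0.06, SE 11.3). Arm ratios used a pseudocount of 0.5 and exact permutation tests (scipy 1.17.1), and 95% Wilson intervals cover counting error only. The scripts were tested on simulated data. No libraries of a group were duplicates (chi-square per degree of freedom 3.18 to 159). Depth sets the precision: 10 tags equalled 26.7 to 155 CPM. Named sequences were all members, sequences sharing their seed or letters, and the 3 closest patterns to miR-181a-5p and miR-181a-2-3p. Members and lists were chosen with earlier results of these data known. Alternatives were other scalings (RLE, library size alone, TMM without miR-21-5p, the authors' scaling), DESeq2 1.42.0, limma 3.58.1 on the deposited signal, other minimum counts, known names only, unmerged rows, a replicate block and left-out libraries.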

Additional observations from a re-analysis of the deposited data

How the results depend on the processing

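The fitted log2 fold change of miR-181a-2-3p was above 0 under all 18 alternatives, but with library size alone it was 0.064 (SE 0.29), and the mean level was lower in co-culture (84.5 and 77.4 CPM). Its edgeR adjusted p of 0.0607 went below 0.05 with no minimum count (log2 fold change 1.19, adjusted p = 0.0257). That fit also called sequences with overlapping groups. Over the alternatives the adjusted p ran from 0.0257 to 0.846. Without the 2 single culture libraries of fewest tags the log2 fold change was 1.52. In that last fit 1 single culture library is left, which is assumed to vary like the co-culture libraries. Leaving out 1 library gave 0.72 to 1.35. With a minimum of 50 it was not tested. The miR-181a arm ratio kept its direction under 13 alternatives, at 0.95 to 1.35. With 1 library left out the difference was 0.98 to 1.35. Without the 2 single culture libraries of fewest tags, an alternative added after seeing the data, it was 1.05. Every co-culture ratio is above every single culture ratio, so leaving out or pairing libraries could not have reversed the direction. The remaining alternatives changed the pseudocount, the value of blanks or the 3p arm, and used the same 5p tags. Length forms of the miR-181a arms were to be counted with them, but no such sequence was listed.

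The 8 calls over all sequences became 140 with library size alone, 21 with the authors' scaling, 22 with DESeq2, 21 with limma on the normalized value plus 10, 37 with no minimum, 21 with a minimum of 50, and 0 to 43 leaving out 1 library. The count was 43, 2 and 3 without single culture library 1, 2 or 3, 5 without co-culture library 1, and 0 without co-culture library 2 or 3 (edgeR, 14 higher and 20 lower, and 15 and 18, at an unadjusted p under 0.05).

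Directions of members below the minimum were not stable. With library size alone, the log2 fold change was -0.63 for miR-181a-3p and -0.46 for miR-181b-5p, and with the authors' scaling -0.17 and -0.045. Without the 2 single culture libraries of fewest tags it was 0.088 for miR-181a-5p, -0.093 for miR-181b-5p and 0.43 for miR-181d-5p. Leaving out 1 library gave -0.17 to 0.058 for miR-181a-5p, -0.61 to 0.14 for miR-181d-5p, 0.18 to 1.09 for miR-181a-3p and 0.30 to 4.43 for miR-181b-5p, whose 4.43 came without single culture library 1, the only library of its group to list it, so that this fitted value is against 0 tags and is no bound. The cause was not tested.

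The column numbers gave no positive sign of pairing. Same-numbered libraries had correlations of deviations of -0.38, -0.15 and -0.24, and the other pairs had -0.10 to 0.28. With 3 libraries per group these values cannot tell whether the libraries were paired. With a replicate block by these numbers, edgeR made 0 calls (14 higher and 16 lower at an unadjusted p under 0.05), miR-181a-2-3p was at 1.02 (adjusted p = 0.211) and the arm ratio difference was 1.21 (exact sign-flip p = 0.25, the smallest that 3 pairs allow).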
